A study of Mus musculus with 7 samples.

Results

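The genes described here are 59 regulators that write, erase or read chemical marks on histones and DNA or that remodel nucleosomes. They were taken by Entrez identifier from a table of 26286 genes, and all 59 were found and passed the filter on low counts, which left 13681 tested genes. RNA was measured by polyA RNA-seq in material labelled as cortical neurons from the brains of male C57BL/6 mouse embryos at E16.5, in 4 KAT7 mutant and 3 wild type mice. The sources used here do not give the kind of mutant allele, any Cre driver, or how neurons were separated from other cells. Whether the libraries came from different litters is likewise not stated. Values are CPM (counts scaled to library size and composition) or, where genes are set against each other, RPKM (the same value per kilobase of the deposited gene length). A gene was called higher or lower in KAT7 mutant at a Benjamini-Hochberg adjusted p under 0.05 in edgeR's quasi-likelihood test, with adjustment over all tested genes.

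KAT7, also known as HBO1, is an acetyltransferase of the MYST family that adds acetyl groups to histone tails. It works inside complexes in which a BRPF or JADE protein is the scaffold that directs the enzyme to its histone substrate, while ING4 or ING5 and MEAF6 are smaller shared subunits. Several of these subunits also serve the related enzymes KAT6A and KAT6B. Other acetyltransferases, deacetylases, methyltransferases, demethylases and remodellers act on the same chromatin, and many of their genes are known for neurodevelopmental disorders when mutated.

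Kat7 mRNA was almost absent from the mutant libraries, with 3, 4, 3 and 10 counts in KAT7 mutant replicates 1 to 4, against 869, 848 and 854 counts in wild type replicates 1 to 3. Library totals ranged from 8272487 to 8813060 counts. The summed CPM of 9 markers of postmitotic neurons was 9513 to 10280 in KAT7 mutant and 9741 to 10430 in wild type. Sums of different genes do not measure the share of a cell type. Markers of other cells had lower sums and in part moved with genotype. As background, 13.1% of all tested genes were higher and 15.8% lower. Radial glia markers had 0 higher and 5 lower of 7 tested. Their summed levels were 177 to 216 CPM in KAT7 mutant and 240 to 260 CPM in wild type. Of 12 markers of cycling cells 3 were lower, 0 higher and 9 not called. Their sums were 241 to 257 CPM in KAT7 mutant and 265 to 286 CPM in wild type. Of 4 markers of intermediate progenitors 2 were lower and 0 higher, with sums of 143 to 177 CPM in KAT7 mutant and 189 to 216.5 CPM in wild type. Interneuron markers had 4 higher of 6 (250.9 to 347.5 CPM in KAT7 mutant, 181 to 269 CPM in wild type). All 4 oligodendrocyte lineage markers were higher (14.0 to 28.4 CPM in KAT7 mutant, 6.45 to 9.38 CPM in wild type), as were 4 of 5 tested microglia markers (24.5 to 33.8 CPM in KAT7 mutant, 15.6 to 18.7 CPM in wild type). None of the 3 tested endothelial and 5 tested erythroid markers was called by edgeR (1 of each list at an unadjusted p under 0.05), with sums of 5.08 to 7.46 and 64.7 to 202 CPM in KAT7 mutant, against 4.87 to 6.41 and 26.0 to 159 CPM in wild type. Of the defining endothelial and microglial markers, Cldn5 and Trem2 were under 1 CPM in every library. In bulk RNA, fewer cells of a type and less RNA per cell cannot be told apart. The part that these cell types play in the results below was not tested.

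Of the 59 chromatin genes, 20 were higher in KAT7 mutant (33.9%), 6 were lower (10.2%) and 33 were not called. Among all tested genes, 13.1% were higher and 15.8% lower. These shares are the background for the class counts below, and each class holds few genes. The median log2 fold change of KAT7 mutant over wild type was 0.08 for the chromatin genes and 0.00 for all tested genes, and 42 of the 59 lay above 0. Most differences were small: only Arid5a, Jade2 and Uhrf1 changed by 2-fold or more, and 22 of the 26 called genes had an absolute log2 fold change under 0.5. The mutant and wild type libraries did not overlap for 25 of the 59 genes (42.4%), against 35.3% of all tested genes.

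Gene length moved with these counts. Transcripts of chromatin regulators are long, with a median of 5934 bases against 2850 bases for all tested genes, and 38 of the 59 fell in the longest of 5 equal groups of tested genes. In that longest group 24.2% of all genes were higher and 16.0% lower, and 27.9% and 14.9% among those with at least 20 CPM in wild type. Of the 34 chromatin genes in that last group, 14 were higher and 3 lower. The median log2 deviation of the longest group less that of the shortest was 0.02, 0.02, -0.02 and 0.09 in KAT7 mutant replicates 1 to 4, and -0.07, -0.02 and -0.05 in wild type replicates 1 to 3. When each library's trend with length was removed, an alternative added after the data were seen, 16 of the 59 were higher and 7 lower, and 22 of the 26 calls held in the same direction. Those lost were Kmt2b, Kmt2c, Kmt2d and Crebbp.

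**Figure D1:**
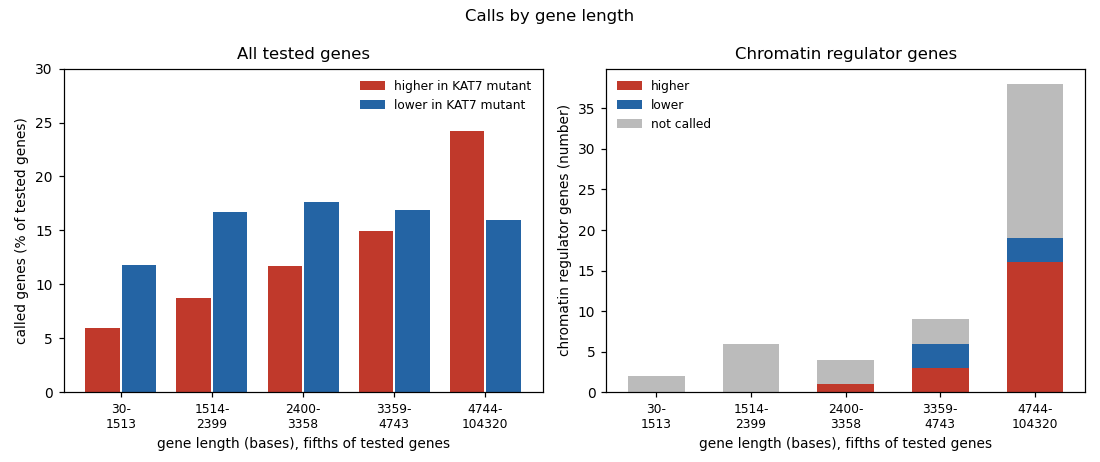
Calls by gene length: the left panel gives the share of all tested genes called higher (red) or lower (blue) in KAT7 mutant (y axis, percent) in 5 equal groups by deposited gene length in bases (x axis), and the right panel the number of chromatin regulator genes (y axis) higher, lower or not called in the same groups. The share called higher was 5.95% in the shortest group and 24.2% in the longest, which holds 38 of the 59 chromatin genes.

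**Figure D2:**
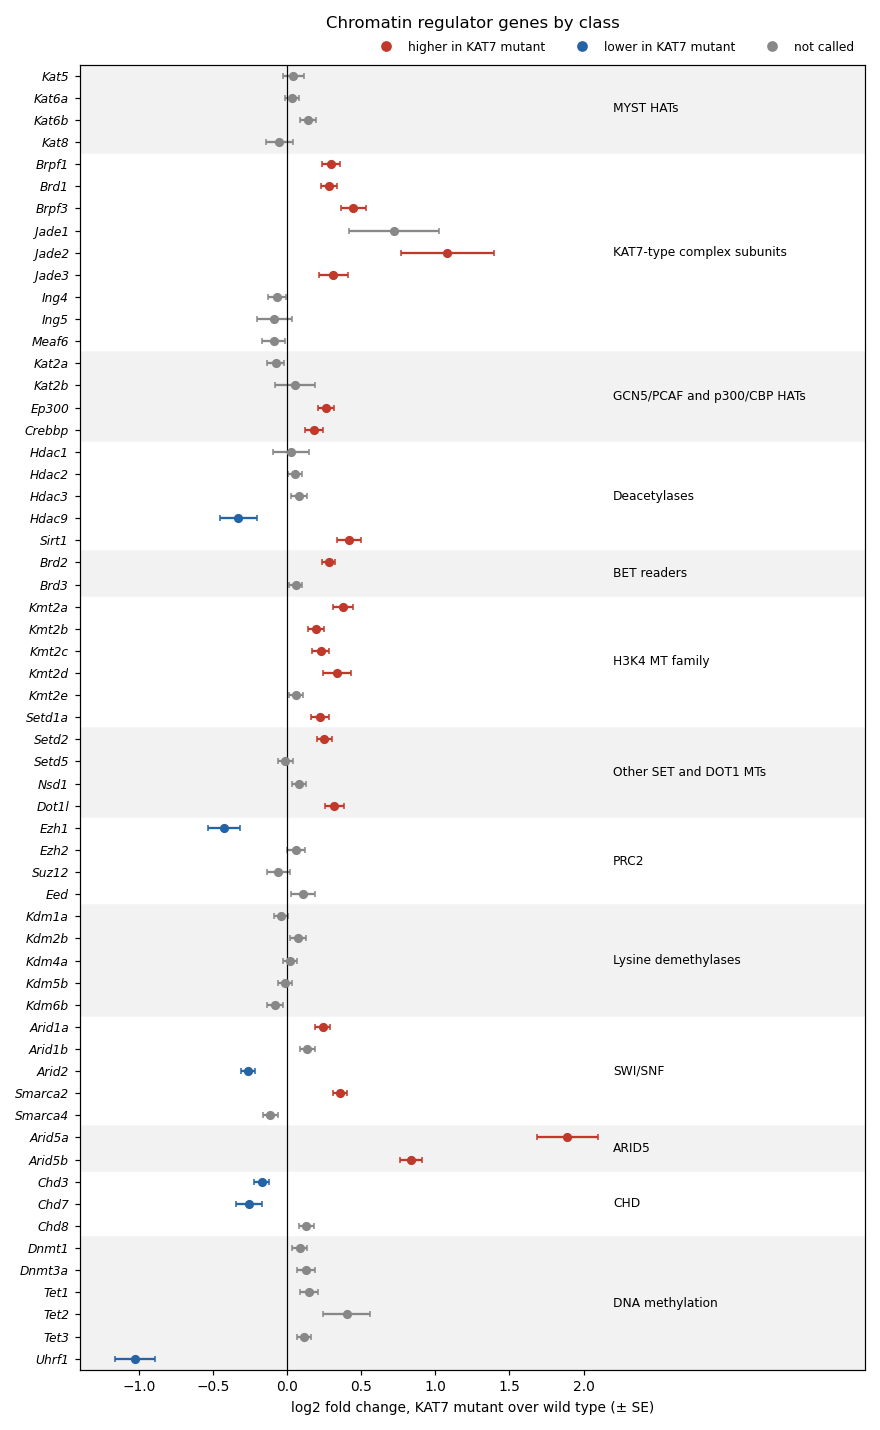
Log2 fold change of KAT7 mutant over wild type with its SE (x axis) for each of the 59 genes (y axis), grouped by class and coloured by the call (HATs, acetyltransferases; MT, methyltransferases). Arid5a, Jade2 and Arid5b lie farthest to the right and Uhrf1 farthest to the left, and most other genes lie within 0.5 of 0.

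The promoter windows of 6 genes are printed: the gene with the largest rise and its paralogue (Arid5a, Arid5b), the gene with the largest fall (Uhrf1), and the BRPF scaffold genes of KAT7-type complexes, all 3 of which were higher. Other changed genes, Jade2 among them, are not shown. Each window runs from 250 bases before to 50 bases after the annotated start, 5′ to 3′ on the gene's own strand, from RefSeq on GRCm38.p6. Of the 2 Uhrf1 windows in that table the one listed first is given. Capitals mark CCAAT and GGGCGG, the sequences bound by NF-Y and by SP1 family factors, on either strand. Neighbouring matches can share bases or run together.
Arid5a, chr1:36307483-36307782, + strand: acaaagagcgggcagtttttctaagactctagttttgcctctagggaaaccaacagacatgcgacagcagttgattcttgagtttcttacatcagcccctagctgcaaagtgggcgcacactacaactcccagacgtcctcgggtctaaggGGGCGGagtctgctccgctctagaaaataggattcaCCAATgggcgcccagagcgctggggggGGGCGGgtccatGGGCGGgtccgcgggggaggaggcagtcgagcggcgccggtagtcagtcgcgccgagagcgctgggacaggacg
Arid5b, chr10:68278677-68278976, - strand: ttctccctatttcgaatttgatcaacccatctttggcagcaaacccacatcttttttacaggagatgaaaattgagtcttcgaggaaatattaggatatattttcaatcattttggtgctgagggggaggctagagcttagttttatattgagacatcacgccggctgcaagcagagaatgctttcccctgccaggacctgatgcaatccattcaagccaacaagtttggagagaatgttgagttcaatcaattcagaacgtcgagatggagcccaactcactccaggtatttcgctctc
Uhrf1, chr17:56303087-56303386, + strand: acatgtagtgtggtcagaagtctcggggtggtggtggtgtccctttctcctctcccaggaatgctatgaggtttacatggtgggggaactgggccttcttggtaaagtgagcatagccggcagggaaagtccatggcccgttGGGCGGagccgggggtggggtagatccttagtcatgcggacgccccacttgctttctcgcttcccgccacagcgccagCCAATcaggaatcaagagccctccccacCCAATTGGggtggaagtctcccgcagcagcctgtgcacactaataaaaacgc
Brpf1, chr6:113306887-113307186, + strand: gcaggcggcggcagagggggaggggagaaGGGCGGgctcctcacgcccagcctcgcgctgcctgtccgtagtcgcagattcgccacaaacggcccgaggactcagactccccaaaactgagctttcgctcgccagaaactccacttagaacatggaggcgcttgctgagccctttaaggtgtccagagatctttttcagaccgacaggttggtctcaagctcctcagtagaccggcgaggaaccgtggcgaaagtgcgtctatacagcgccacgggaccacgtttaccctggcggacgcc
Brd1, chr15:88734170-88734469, - strand: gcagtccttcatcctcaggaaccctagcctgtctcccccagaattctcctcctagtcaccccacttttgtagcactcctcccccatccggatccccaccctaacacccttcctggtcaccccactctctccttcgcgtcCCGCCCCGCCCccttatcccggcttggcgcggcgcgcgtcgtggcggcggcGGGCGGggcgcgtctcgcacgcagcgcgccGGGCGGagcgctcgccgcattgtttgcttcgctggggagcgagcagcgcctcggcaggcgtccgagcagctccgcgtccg
Brpf3, chr17:28800876-28801175, + strand: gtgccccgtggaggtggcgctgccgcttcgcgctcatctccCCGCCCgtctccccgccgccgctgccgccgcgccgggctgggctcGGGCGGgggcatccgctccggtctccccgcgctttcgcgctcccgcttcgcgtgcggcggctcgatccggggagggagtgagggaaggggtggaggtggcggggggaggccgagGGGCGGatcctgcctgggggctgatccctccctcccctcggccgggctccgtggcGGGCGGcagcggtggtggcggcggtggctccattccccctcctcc

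The Arid5a window held 3 GGGCGG and 1 CCAAT matches, whereas the Arid5b window held 0 of both. The Uhrf1 window held 3 CCAAT matches and 1 GGGCGG match. Brpf1, Brd1 and Brpf3 had 1, 4 and 4 GGGCGG matches and 0 CCAAT matches. A GGGCGG was present in 65.5% and a CCAAT in 38.8% of the windows of 10086 tested genes, and in 33 and 14 of the 48 chromatin genes that had a window. The letters TGACGTCA, TTTGGCGC and TTTCCCGC, also searched on both strands, were in 3.44%, 1.02% and 2.12% of all windows and in none of the 6 printed. GC content was 60.3% for Arid5a, 43.3% for Arid5b and 58.3% for Uhrf1, and 61.7%, 70.0% and 78.7% for Brpf1, Brd1 and Brpf3. The median was 65.0% for the chromatin genes and 61.3% for all tested genes with a window.

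Of 9 subunit genes of KAT7-type complexes 5 were higher in KAT7 mutant and 0 lower. For all tested genes the shares were 13.1% higher and 15.8% lower, and for the longest group 24.2% and 16.0%. Of 22 other genes listed with acetyltransferase complexes 9 were higher and 0 lower. The 5 higher subunit genes were all the scaffold genes but Jade1, while the 3 small subunits were not called. Brpf1 had 78.8, 83.7, 81.4 and 83.8 CPM in KAT7 mutant replicates 1 to 4, against 61.6, 67.2 and 71.0 CPM in wild type replicates 1 to 3. Brd1, which encodes BRPF2, had 146, 156, 146 and 142 CPM in the mutant and 115, 123 and 127 CPM in the wild type libraries. Every mutant library lay above every wild type library for both, at log2 fold changes of 0.30 ± 0.06 and 0.28 ± 0.05 (SE; edgeR adjusted p = 0.00111 and 0.000607). Brpf3, the third BRPF scaffold, had 47.9, 39.8, 37.5 and 41.2 CPM in the mutant libraries and 30.3, 29.4 and 31.8 CPM in the wild type libraries. With 0.45 ± 0.09 (SE; edgeR adjusted p = 0.000519) it had the largest value of the BRPF genes, and again the genotypes did not overlap.

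The JADE scaffold genes were of lower abundance. Jade3 stood at 25.2, 27.6, 28.8 and 29.9 CPM in KAT7 mutant, against 24.3, 19.2 and 23.9 CPM in wild type (0.31 ± 0.10 SE, edgeR adjusted p = 0.0219). Jade2 had 3.50, 3.48, 2.60 and 6.85 CPM in the mutant libraries and 2.61, 1.60 and 1.58 CPM in the wild type libraries. KAT7 mutant replicate 4 was the highest for Jade2, replicate 3 was level with wild type replicate 1, and the log2 fold change was 1.08 ± 0.32 (SE; edgeR adjusted p = 0.0135). Jade1, at 2.57, 2.55, 1.65 and 3.18 CPM in mutant and 2.14, 1.14 and 1.24 CPM in wild type, was not called (0.72 ± 0.30 SE, edgeR adjusted p = 0.0802). Leaving out 1 library ended the call of Jade2 (without wild type replicate 2 or 3 or KAT7 mutant replicate 4, at 0.96, 0.96 and 0.73) and of Jade3 (without replicate 2 of wild type or replicate 4 of KAT7 mutant, at 0.21 and 0.28). Jade1 gained a call when wild type replicate 1 or else mutant replicate 3 was left out, at 1.04 and 0.87.

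Ing4, Ing5 and Meaf6 encode the small subunits. Ing4 had 78.6, 72.5, 77.7 and 71.4 CPM in KAT7 mutant and 79.1, 78.2 and 79.1 CPM in wild type. Meaf6 had 41.1, 36.9, 35.3 and 36.7 CPM in the mutant libraries and 42.8, 39.0 and 38.2 CPM in the wild type libraries. Their log2 fold changes were -0.07 ± 0.06 and -0.09 ± 0.08 (SE), and that of Ing5 was -0.09 ± 0.12, with overlapping genotypes for all 3 genes.

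The other MYST acetyltransferases were not called. Kat6a, the most abundant of them, had 359.8, 349, 327 and 348 CPM in KAT7 mutant and 340.0, 333 and 340.5 CPM in wild type (0.03 ± 0.05 SE). Kat6b had 181, 172, 163 and 186 CPM in the mutant and 159, 159 and 160.1 CPM in the wild type libraries. The mutant libraries all lay above the wild type ones for Kat6b, but at 0.14 ± 0.05 (SE) the edgeR adjusted p was 0.0551. It was called with RLE size factors, in the robust edgeR fit and without KAT7 mutant replicate 3, and its adjusted p by edgeR, DESeq2 or limma ranged from 0.0200 to 0.203. Kat5, the catalytic subunit of the TIP60 complex, and Kat8, also known as MOF, stood at 0.04 ± 0.07 and -0.05 ± 0.09 (SE).

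Among acetyltransferases outside the MYST family, the coactivators p300 and CBP were higher and the GCN5/PCAF enzymes were not called. Ep300 had 225, 211, 204 and 236 CPM in KAT7 mutant, against 183, 179 and 185 CPM in wild type, with no overlap (0.26 ± 0.05 SE, edgeR adjusted p = 0.000976). Crebbp had 198, 194, 173 and 215 CPM in the mutant and 169.6, 172 and 174 CPM in the wild type libraries. Its mutant replicate 3 lay within the wild type range, and the log2 fold change was 0.18 ± 0.06 (SE; edgeR adjusted p = 0.0272). That call was lost without any 1 of the 3 wild type libraries, without KAT7 mutant replicate 2 or 4, and with the length trend removed (0.12 to 0.19). Kat2a had 94.8, 89.2, 90.2 and 89.0 CPM in KAT7 mutant and 97.6, 92.1 and 98.0 CPM in wild type (-0.08 ± 0.06 SE). Kat2b had 19.2, 15.5, 15.9 and 13.1 CPM in the mutant and 17.7, 12.5 and 16.1 CPM in the wild type libraries (0.05 ± 0.14 SE), and both genes overlapped.

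Deacetylases, which remove acetyl groups, gave 1 rise and 1 fall among 5 genes. Sirt1, an NAD-dependent deacetylase, had 40.9, 40.5, 50.7 and 45.0 CPM in KAT7 mutant, against 33.1, 32.6 and 33.7 CPM in wild type. All mutant libraries lay above the wild type range, at 0.42 ± 0.08 (SE; edgeR adjusted p = 0.000758). Hdac9, a class IIa deacetylase, had 17.1, 17.6, 22.3 and 20.1 CPM in the mutant libraries and 23.2, 29.2 and 20.2 CPM in the wild type libraries. The genotypes overlapped, the value was -0.33 ± 0.12 (SE; edgeR adjusted p = 0.0491), and the call was lost with RLE factors, DESeq2 or limma-voom and without wild type replicate 1 or 2 or KAT7 mutant replicate 1, 2 or 4 (-0.364 to -0.175). The class I enzymes were not called: Hdac2 had 512, 466, 513 and 470.5 CPM in KAT7 mutant and 470.0, 483 and 465 CPM in wild type, and Hdac3 had 103, 100.1, 102 and 97.4 CPM in KAT7 mutant and 93.0, 92.7 and 99.7 CPM in wild type. Hdac1 stood at 0.03 ± 0.12 (SE).

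Brd2 and Brd3 encode BET proteins, which bind acetylated histones. Brd2 had 599, 588, 584 and 572 CPM in KAT7 mutant and 468, 481 and 497 CPM in wild type, with each mutant library above each wild type library (0.28 ± 0.05 SE, edgeR adjusted p = 8.84e-05). Brd3 had 437, 432, 411 and 428 CPM in the mutant and 401, 412 and 418 CPM in the wild type libraries, and at 0.06 ± 0.05 (SE) it was not called.

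Of the 6 genes of the H3K4 methyltransferase family, 5 were higher and 0 lower. Each of the 6 lay in the longest group, where 27.9% of genes with at least 20 CPM in wild type were higher and 14.9% lower. Kmt2a, the mouse homologue of human MLL, had 348, 352, 309 and 403 CPM in KAT7 mutant, against 284, 271 and 260.3 CPM in wild type. The ranges did not overlap, replicate 4 was the highest mutant library and replicate 3 the lowest, and the log2 fold change was 0.38 ± 0.07 (SE; edgeR adjusted p = 0.000233). The same order, replicate 4 highest and replicate 3 lowest, held for Kmt2b, Kmt2c and Kmt2d, and also for the library trend with gene length given above. It was not particular to this family, and was also seen in Ep300, Crebbp, Dot1l, Kat6b and Chd8 among others. Kmt2d ranged from 181.5 to 272 CPM in the mutant and from 166 to 189 CPM in the wild type libraries, with overlap (0.34 ± 0.09 SE, edgeR adjusted p = 0.00870). Kmt2c (0.22 ± 0.06), Setd1a (0.22 ± 0.06) and Kmt2b (0.20 ± 0.05) had no overlap between genotypes (edgeR adjusted p = 0.00755, 0.00877 and 0.00939). With the length trend removed Kmt2a and Setd1a were still called, at 0.23 and 0.18, whereas Kmt2b, Kmt2c and Kmt2d were not, at 0.12, 0.07 and 0.16. Kmt2d was also not called by DESeq2 or the robust edgeR fit, and Setd1a not without wild type replicate 2. Kmt2e had 591, 612, 565 and 618 CPM in KAT7 mutant and 564, 566 and 586 CPM in wild type (0.06 ± 0.05 SE).

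Methyltransferases for other residues were called in 2 of 4 genes. Dot1l, the H3K79 methyltransferase, had 142, 154, 132 and 166 CPM in KAT7 mutant and 117, 116 and 123 CPM in wild type (0.32 ± 0.07 SE, edgeR adjusted p = 0.00108). Setd2, an H3K36 methyltransferase, had 317, 326, 297 and 317 CPM in the mutant and 265, 278 and 249.9 CPM in the wild type libraries (0.25 ± 0.05 SE, edgeR adjusted p = 0.000873). Both genes had mutant libraries entirely above the wild type range. Nsd1, with 397, 388, 373 and 407 CPM in KAT7 mutant and 377, 374 and 358 CPM in wild type, was at 0.08 ± 0.05 (SE), and Setd5, with 246, 270.5, 261 and 286 CPM in KAT7 mutant and 262, 269.5 and 271 CPM in wild type, was at -0.01 ± 0.05. They were not called, and their genotypes overlapped.

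Within PRC2, the complex that methylates H3K27, the catalytic subunit gene Ezh1 was lower and the others were not called. Ezh1 had 17.6, 16.0, 13.2 and 15.5 CPM in KAT7 mutant, against 22.3, 20.03 and 20.5 CPM in wild type, without overlap (-0.42 ± 0.11 SE, edgeR adjusted p = 0.00547). Its paralogue Ezh2, the form typical of dividing cells, had 166, 138, 152 and 151 CPM in the mutant and 135, 148 and 154 CPM in the wild type libraries (0.06 ± 0.06 SE). Suz12, a core partner, had 108, 83.4, 93.2 and 86.3 CPM in KAT7 mutant and 93.0, 103 and 93.8 CPM in wild type (-0.06 ± 0.07 SE), and the other core subunit gene, Eed, was at 0.11 ± 0.08 (SE). The 5 lysine demethylase genes were all not called, with log2 fold changes between -0.08 and 0.07 and overlapping genotypes for each. Kdm5b had 333, 326, 325 and 335 CPM in KAT7 mutant and 318, 344 and 336 CPM in wild type, and Kdm6b had 313, 301, 289 and 334 CPM in KAT7 mutant and 312, 322 and 348 CPM in wild type. Kdm1a (LSD1), Kdm2b and Kdm4a were at -0.04, 0.07 and 0.02.

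Subunits of SWI/SNF (BAF) remodellers changed in both directions. Smarca2, which encodes the ATPase BRM, had 464, 488, 458 and 469 CPM in KAT7 mutant, against 361, 382 and 359 CPM in wild type (0.35 ± 0.05 SE, edgeR adjusted p = 8.50e-06). Smarca4, which encodes the alternative ATPase BRG1, had 824, 790.3, 715 and 782 CPM in the mutant and 823, 836 and 867 CPM in the wild type libraries. Smarca2 had no overlap, whereas Smarca4 overlapped and was not called (-0.11 ± 0.05 SE, edgeR adjusted p = 0.0960). Smarca4 was called lower with the length trend removed (-0.16) and without KAT7 mutant replicate 1 (-0.15), and its adjusted p by edgeR, DESeq2 or limma ranged from 0.0162 to 0.276. Arid1a, a BAF subunit, had 476, 473, 425 and 483 CPM in KAT7 mutant and 391, 389 and 399.5 CPM in wild type (0.24 ± 0.05 SE, edgeR adjusted p = 0.00115). Arid2, which belongs to the PBAF form, had 179.7, 188, 177 and 191 CPM in the mutant and 214, 224 and 224 CPM in the wild type libraries (-0.26 ± 0.05 SE, edgeR adjusted p = 0.000356). The 2 ARID subunits thus lay on opposite sides of 0, each without overlap. Arid1b, with 205, 199, 185 and 198 CPM in KAT7 mutant and 173, 176 and 188 CPM in wild type, was not called (0.14 ± 0.05 SE, edgeR adjusted p = 0.0557). It was called with RLE size factors and without the third replicate of either genotype (0.14, 0.17 and 0.16), and its adjusted p by edgeR, DESeq2 or limma ranged from 0.0259 to 0.735.

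Both ARID5 genes were higher and gave the largest called rises beside Jade2. Arid5a, an AT-rich DNA-binding and RNA-binding protein known for stabilising inflammatory mRNAs, had 62.4, 38.4, 30.9 and 30.8 CPM in KAT7 mutant, against 12.6, 10.5 and 9.84 CPM in wild type. Each mutant library had over 2 times the highest wild type level, and replicate 1 stood well above the other mutant libraries. The log2 fold change was 1.89 ± 0.21 (SE; edgeR adjusted p = 7.71e-07), and 1.60 without KAT7 mutant replicate 1. That library also had the highest summed level of 5 immediate early genes, 114 CPM against 41.8 to 46.4 CPM in the other mutant and 40.1 to 68.5 CPM in the wild type libraries, and the part of this in the Arid5a level was not tested. Arid5b, a partner of the demethylase PHF2, had 48.3, 46.0, 48.4 and 48.0 CPM in the mutant and 27.7, 27.7 and 24.9 CPM in the wild type libraries. Its replicates were tight, the genotypes did not overlap, and the value was 0.83 ± 0.07 (SE; edgeR adjusted p = 4.61e-08).

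CHD remodellers gave 2 falls and 0 rises among 3 genes. Chd3, a NuRD ATPase and the most abundant of the 59 genes by CPM, had 1155, 1134, 1025 and 1147 CPM in KAT7 mutant and 1239, 1246 and 1285 CPM in wild type. All mutant libraries lay below the wild type range (-0.17 ± 0.05 SE, edgeR adjusted p = 0.0113), and the call was lost without wild type replicate 3 (-0.16). Chd7, the gene of CHARGE syndrome in humans, had 31.1, 24.8, 28.0 and 31.1 CPM in the mutant and 32.5, 36.2 and 34.2 CPM in the wild type libraries (-0.26 ± 0.09 SE, edgeR adjusted p = 0.0351). Chd7 lost its call with DESeq2 and without wild type replicate 2 or 3 or KAT7 mutant replicate 2 or 3 (-0.26 to -0.19). Chd8, at 302, 288, 265 and 309 CPM in KAT7 mutant and 269.8, 263 and 264 CPM in wild type, was not called (0.13 ± 0.05 SE, edgeR adjusted p = 0.0737). It was called higher without KAT7 mutant replicate 3 (0.17), and its adjusted p by edgeR, DESeq2 or limma ranged from 0.0134 to 0.389.

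Of the 6 DNA methylation genes, Uhrf1 was lower and the enzymes were not called. Uhrf1 encodes the factor that recruits DNMT1 to newly replicated DNA, and it had 5.26, 6.61, 6.14 and 7.21 CPM in KAT7 mutant, against 12.2, 12.6 and 13.7 CPM in wild type. The highest mutant library was well under the lowest wild type library (-1.03 ± 0.14 SE, edgeR adjusted p = 8.63e-06). Uhrf1 is transcribed mainly in cycling cells, and 9 of 12 markers of such cells were not called. The summed levels of the cycling and radial glia markers given above lay lower in every mutant library than in every wild type library. The part of these cells in the Uhrf1 fall was not tested. Dnmt1, the maintenance methyltransferase, had 263, 252, 238 and 255 CPM in KAT7 mutant and 239, 239.8 and 235 CPM in wild type (0.08 ± 0.05 SE). Dnmt3a, a de novo methyltransferase, was at 0.12 ± 0.06 (SE). The TET genes, whose products oxidise methylcytosine, all had values above 0 without being called: Tet1 stood at 0.15 ± 0.06, Tet2 at 0.40 ± 0.16 and Tet3 at 0.12 ± 0.05 (SE). Tet3 had 239, 232, 230.5 and 243 CPM in the mutant and 217, 224 and 213 CPM in the wild type libraries, and neither Tet3 nor Tet1 overlapped. Tet2, at 8.88 to 12.5 CPM in KAT7 mutant and 6.335 to 8.91 CPM in wild type, was called with no count filter and after leaving out the first replicate of either genotype (0.40, 0.53 and 0.45).

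**Figure D3:**
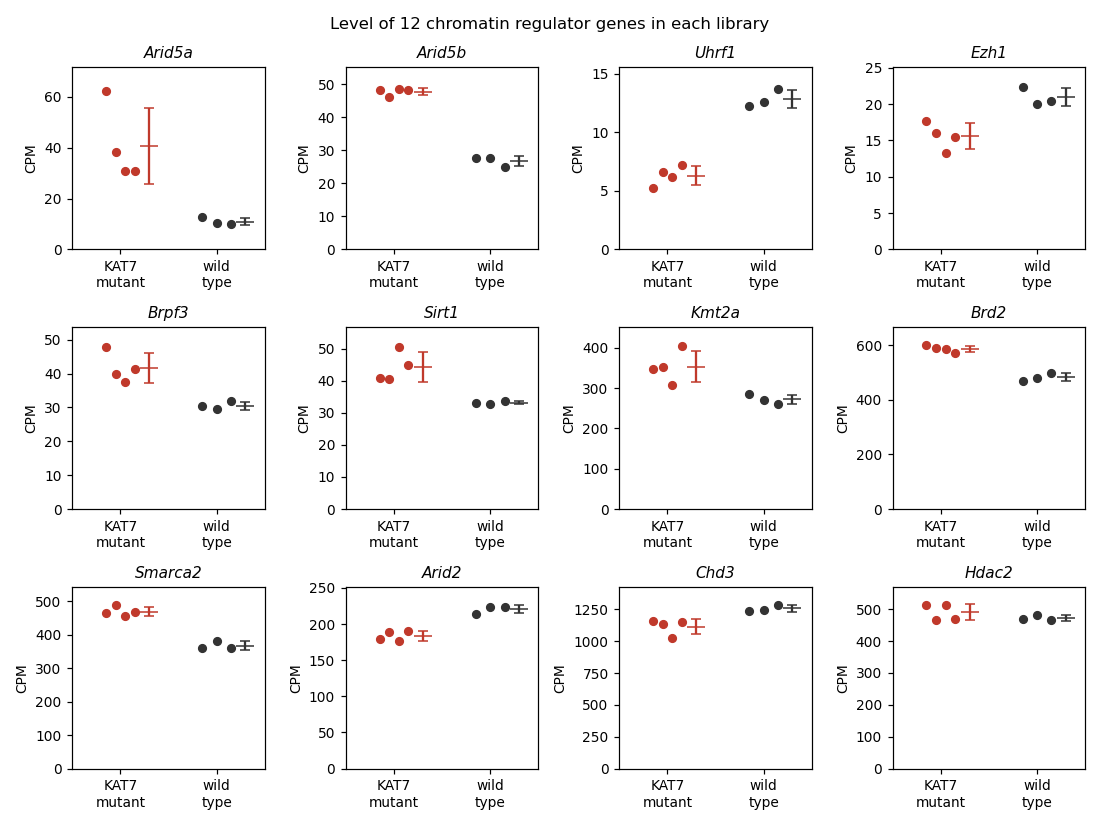
CPM (y axis, from 0) of 12 chromatin regulator genes in each library, with KAT7 mutant (red, n = 4) left of wild type (black, n = 3); points are libraries and the bars to their right are mean ± SD. Arid5a ranged from 30.8 to 62.4 CPM in KAT7 mutant and from 9.84 to 12.6 CPM in wild type. The genes shown are a selection made up mostly of called genes, and the genotypes separate in every panel but that of Hdac2. Of all 59 genes 25 did not overlap (42.4%), against 35.3% of all tested genes.

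Per base of gene length, Hdac2 was the most abundant of the 59 transcripts, at 245 ± 12.8 RPKM in KAT7 mutant and 236 ± 4.61 RPKM in wild type (SD, n = 4 and 3). Chd3 followed at 155 ± 8.51 RPKM in KAT7 mutant and 175 ± 3.49 RPKM in wild type. Brd2 had 123 ± 2.35 RPKM and Smarca4 122 ± 7.19 RPKM in KAT7 mutant, whereas in wild type Brd2 had 101 ± 3.04 RPKM and Smarca4 132 ± 3.54 RPKM. Kdm1a had 99.3 ± 1.52 RPKM in KAT7 mutant and 102 ± 4.87 RPKM in wild type. Jade1 was the least abundant, at 0.418 ± 0.105 RPKM in KAT7 mutant and 0.254 ± 0.0919 RPKM in wild type.

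The balance of related genes was compared within each library as a log2 ratio of counts per base, for 10 pairs. An exact permutation test, two-sided, of 4 against 3 libraries cannot give a p below 0.0571, so no pair could pass 0.05. That smallest p was reached by 6 pairs (0.0952 after Benjamini-Hochberg adjustment over the 10), those whose genotypes did not overlap. Ratios are given as mean ± SD over the 4 mutant or 3 wild type libraries. The ratio of Smarca4 to Smarca2 was 0.66 ± 0.08 in KAT7 mutant and 1.13 ± 0.07 in wild type, a difference of -0.47 (exact permutation p = 0.0571). Ezh2 over Ezh1 was 3.94 ± 0.17 in the mutant and 3.45 ± 0.17 in the wild type libraries, a difference of 0.49. For Arid5a over Arid5b the ratio was -0.64 ± 0.48 in the mutant and -1.63 ± 0.14 in the wild type libraries. The differences were -0.10 for Kat6a over Kat6b, 0.18 for Kmt2a over Kmt2b and 0.08 for Ep300 over Crebbp. Dnmt1 over Dnmt3a, Kat2a over Kat2b, Hdac1 over Hdac2 and Tet3 over Tet1 overlapped between genotypes (exact permutation p = 0.286 to 0.743). For Hdac1 over Hdac2 the ratio was -5.41 ± 0.11 in the mutant and -5.38 ± 0.02 in the wild type libraries.

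**Figure D4:**
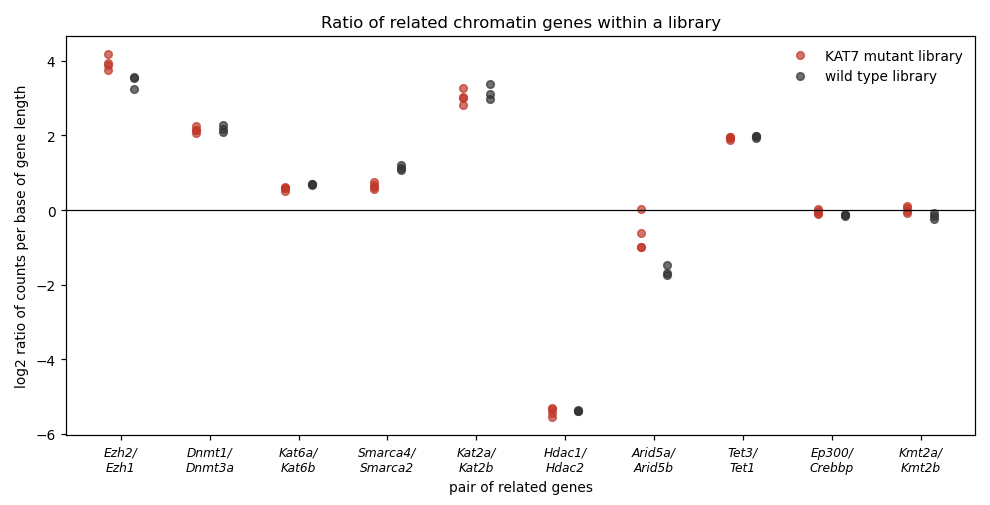
Log2 ratio of counts per base of gene length (y axis) for 10 pairs of related chromatin genes (x axis), with each KAT7 mutant library (red, n = 4) left of each wild type library (black, n = 3). Smarca4/Smarca2 is lower (0.66 in KAT7 mutant and 1.13 in wild type on average) and Ezh2/Ezh1 higher (3.94 in KAT7 mutant and 3.45 in wild type) in every KAT7 mutant library.

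Of 153 other genes of the same families and complexes, all were tested, and 38 were higher (24.8%) and 11 lower (7.19%). Among all tested genes 13.1% were higher and 15.8% lower, and in the longest group of them 24.2% and 16.0%. With the length trend removed 32 of the 153 were higher and 11 lower. Without wild type replicate 1, 25 were higher. The median log2 fold change of the 153 was 0.08. Among 22 other genes listed with acetyltransferase complexes 9 were higher and 0 lower. Epc1 of the TIP60 complex was at 0.32 and Tada2b of SAGA at 0.27. Ing2, at 0.54, and Ing1, both higher, were counted in this list, although their products are subunits of SIN3 deacetylase complexes. Of 21 other deacetylases and corepressors 2 were higher and 5 lower: Hdac4 and Mta3 were at 0.34 and 0.30, and Rcor2 and Rcor1, the CoREST corepressors of LSD1, were at -0.58 and -0.43, and the mitochondrial Sirt3 at -0.45. Of 22 other methyltransferases and COMPASS subunits 3 were higher and 3 lower, with Setd1b at 0.41, Kmt5b at 0.22 and Nsd2 at 0.17, and Smyd3, the COMPASS subunit Dpy30 and Kmt5c at -0.44, -0.44 and -0.28.

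Other Polycomb genes had 8 higher and 2 lower of 22. Asxl2, Jarid2 and Asxl3 were at 0.40, 0.32 and 0.30, and Phf1 at -0.29. Cbx7, which encodes a PRC1 subunit that binds methylated H3K27, had 2.10, 2.09, 2.25 and 1.22 CPM in KAT7 mutant, against 4.39, 4.58 and 4.64 CPM in wild type (-1.23 ± 0.23 SE, edgeR adjusted p = 0.000305). Of 13 other demethylases 5 were higher and 0 lower, including Kdm7a at 0.33, Kdm5a at 0.30 and Jmjd1c at 0.25. Other remodelling subunits, listed together with further ARID genes, had 9 higher and 1 lower of 41. Chd5, a CHD gene of neurons, had 169, 179.6, 166 and 192 CPM in the mutant and 128, 123 and 105 CPM in the wild type libraries (0.57 ± 0.07 SE, edgeR adjusted p = 2.04e-06). Ino80 was at 0.39. Arid4b, at 0.42, was counted in this list, although its product is a subunit of the SIN3 corepressor and not of a remodeller. Actl6b, the neuronal BAF subunit, was at -0.21. Of 11 other DNA methylation genes only Gadd45g was called, at 20.3, 8.93, 7.92 and 8.44 CPM in KAT7 mutant and 4.28, 5.38 and 7.13 CPM in wild type (1.02 ± 0.28 SE), with KAT7 mutant replicate 1 again the highest.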

How the data were processed

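The authors deposited 1 table of raw read counts per gene for 7 libraries, with an Entrez identifier and a gene length in bases per row. The submitters' processing notes name featureCounts for counting and mm9 as the genome build. For the aligner, annotation release and strand setting the sources used here give nothing. Genes that overlap, lie antisense or have a near-identical copy may therefore share reads. Each column name matched 1 sample's description, and symbols came from RefSeq GRCm38.p6 by identifier (24176 of 26286 matched).

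Genes were filtered with filterByExpr (minimum count 10), scaled by TMM (factors 0.9894 to 1.01) and tested with glmQLFTest in edgeR version 4.0.16 (R version 4.3.3) with a model of genotype alone. The p-values are two-sided and adjusted over 13681 genes. Log2 fold changes have KAT7 mutant on top, and their SE was taken as the absolute value divided by the root of the F statistic. The labels do not say more of the replicates than that they are separate mice, and pairs of libraries of 1 genotype differed by more than counting noise (chi-square per gene 2.03 to 3.62). At these depths genes near 1 CPM are measured imprecisely.

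The 59 genes and the other lists were chosen with earlier results of these data known, and p-values were not adjusted over a list alone. The naming rule gave values per library to called members with an absolute log2 fold change of at least 0.5 and to the up to 2 most abundant uncalled members of each class; other members were given per library after their values were seen. Of the other lists it named up to 3 called genes per direction. Of the genes it named in these lists, 1 is not reported here. Alternatives were RLE factors, library size only, no count filter, a filter requiring 3 libraries to reach 1 CPM, limma-voom (limma version 3.58.1), DESeq2 version 1.42.0, edgeR with robust dispersions, a term for replicate number, each library left out, and an adjusted p under 0.01. Removal of a lowess trend of each library on gene length was added after the data were seen.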

Additional observations from a re-analysis of the deposited data

Results flagged for a closer look

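In 3 of the 59 genes, 1 of the 4 KAT7 mutant libraries lay far from the other 3 relative to the range of the group. Setd1a was lowest in KAT7 mutant replicate 3, at 114 CPM, as was Chd3, at 1025 CPM. Arid5b was lowest in replicate 2, at 46.0 CPM, within a narrow range. Chance alone marks about 1 in 20 such groups.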

How the results depend on the processing

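The number of chromatin genes called higher was 16 to 24 and lower 4 to 7 over the 16 alternatives at an adjusted p under 0.05. Of the 26 called genes, 16 were called in all 16, and none changed direction. At an adjusted p under 0.01, 1034 of all tested genes were higher, 3 chromatin genes were lower, and 25 other chromatin genes were higher and 6 lower. With 1 library left out, 25 to 39 other chromatin genes were higher, the lowest without wild type replicate 1.

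Deviations from the genotype mean, compared between libraries with equal replicate numbers, correlated at 0.0181, 0.0118 and -0.0292 for numbers 1 to 3. Between libraries with unequal numbers they correlated at -0.0375 to 0.0519. With so few libraries behind each mean, these values cannot settle whether the libraries were paired. With the replicate block 16 chromatin genes were higher and 5 lower, and the calls of Jade2, Jade3, Crebbp, Hdac9 and Kmt2b were lost.

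Values near 0 of uncalled genes turned sign. With the length trend removed Kat6a was at -0.0482, Nsd1 at -0.0374 and Kdm4a at -0.00252. With 1 library left out the ranges were -0.005455 to 0.09345 for Kat5, -0.09875 to 0.001313 for Kat8, -0.08417 to 0.1557 for Kat2b, -0.02272 to 0.09169 for Hdac1, -0.04813 to 0.02161 for Setd5, -0.01277 to 0.05289 for Kdm4a and -0.05019 to 0.007441 for Kdm5b. The genotype difference in the log2 ratio of Dnmt1 to Dnmt3a ranged from -0.08538 to 0.007098 and that of Hdac1 to Hdac2 from -0.06678 to 0.01846. The causes were not tested.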
